A study of Homo sapiens with 21 samples.

Results

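The transforming growth factor-beta (TGF-beta) ligands, receptors and feedback genes were followed across BT-549 cells, an established human triple-negative breast cancer (TNBC) line. The members were 10 of the 42339 genes in the count table: the ligands TGFB1, TGFB2 and TGFB3, the receptors TGFBR1, TGFBR2 and TGFBR3, the activin subunit gene INHBA, the activin antagonist FST, the inhibitory SMAD gene SMAD7 and the matrix target TGFBI. They were picked by name, as the rows whose Ensembl identifier belongs to these symbols, and each symbol had 1 row. Bulk mRNA was sequenced from 21 cultures in 7 groups of 3. The 2D cells grew attached in serum-containing medium, and the 3D cells were serial passage 6 (S6) mammospheres in serum-free medium, so medium and format cannot be told apart. Such 3D cells were also treated with 0.75 μM GO-203, a peptide inhibitor of MUC1-C directed at its CQC motif. Puromycin-selected mammospheres carried a lentiviral tet-MUC1shRNA (S6) or tet-MYCshRNA (labelled S8). An immunoblot legend of the study names S6 for the tet-MYCshRNA line. Both lines received 0.1% DMSO as vehicle or 500 ng/ml doxycycline (DOX), which switches on the shRNA. A control shRNA with DOX was not analysed here, so an effect of the shRNA and an effect of DOX itself cannot be told apart.

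TGF-beta ligands are secreted in a latent form, and once released they bring the type II receptor TGFBR2 and the type I receptor TGFBR1 together on the cell surface. The type I receptor then phosphorylates SMAD2 and SMAD3, which act in the nucleus with SMAD4. The coreceptor TGFBR3 (betaglycan) presents ligand, above all TGFB2. Activin A, a dimer of the INHBA product, uses its own receptors but the same SMADs, and follistatin, the product of FST, binds and neutralises it. SMAD7 is induced by the pathway and blocks its receptors, and TGFBI encodes a secreted matrix protein named for its induction by TGF-beta. In breast cancer the pathway is known both for growth arrest and for the epithelial-mesenchymal transition.

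The 100 bases before the RefSeq start sites (GRCh38.p14) of the 3 ligand genes, and of the 2 members with the largest changes on silencing, INHBA and TGFBI, are shown because these genes moved in different ways between the same groups. Capitals mark motif matches. The searched motifs were the E-box CACGTG, to which MYC binds with its partner MAX, the palindromic SMAD element GTCTAGAC, the core of the SMAD-binding CAGA box, CAGACA, and the AP-1 site TGANTCA, on both strands.
TGFB1, chr19:41353923-41354022, minus strand: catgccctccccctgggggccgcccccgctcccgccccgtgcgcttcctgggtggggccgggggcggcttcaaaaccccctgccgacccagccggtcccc
TGFB2, chr1:218345236-218345335, plus strand: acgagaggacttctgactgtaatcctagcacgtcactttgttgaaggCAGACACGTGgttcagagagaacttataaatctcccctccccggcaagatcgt
TGFB3, chr14:75983012-75983111, minus strand: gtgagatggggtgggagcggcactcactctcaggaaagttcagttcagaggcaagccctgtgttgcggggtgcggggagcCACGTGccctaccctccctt
INHBA, chr7:41703091-41703190, minus strand: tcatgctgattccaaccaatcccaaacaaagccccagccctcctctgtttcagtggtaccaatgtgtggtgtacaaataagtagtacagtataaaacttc
TGFBI, chr5:136028888-136028987, plus strand: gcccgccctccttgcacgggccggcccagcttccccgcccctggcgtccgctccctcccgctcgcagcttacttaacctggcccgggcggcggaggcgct
All 10 members had a listed promoter, and the search covered 250 bases before each start. CACGTG stood at -49 in TGFB2 and at -20 in TGFB3, and 6.34% of 35116 listed promoters hold it. In TGFB2 it shares bases with a CAGACA at -53, and the whole TGFB2 stretch also lies in exons of the antisense gene TGFB2-AS1. CAGACA, held by 13.6% of promoters, was otherwise found before starts of TGFBR1. TGANTCA (6.57% of promoters) was found at -160 in FST. GTCTAGAC (0.182%) was found in no member. A match is a description of these letters only.

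Total counts ran from 38026597 to 99751717 per library, a ratio of 2.62, and members are given as CPM, counts divided by library size, with TMM factors over all 21 libraries. Counting error is small at this depth for most members, so the spread between the 3 cultures of a group sets the precision. The labels number the cultures without saying how separately they were grown, so p-values measure only the spread between these samples, which may be technical. Replicates differed most among the DOX-treated tet-MYCshRNA libraries, where replicate 1 stood apart from the others (chi-square per degree of freedom of 52.8 and 36.3 over all genes, against 19.5 for the other pair of that group and 4.36 to 21.04 for pairs of the other groups). On DOX the targeted genes were lower in their own lines, MUC1 by a log2 fold change of -2.06 and MYC by -0.62, both with groups that did not overlap. In the tet-MYCshRNA line MUC1 was higher with DOX (log2 fold change 1.25), and in the tet-MUC1shRNA line MYC was slightly higher (0.25). The labels call BT-549 epithelial. The mesenchymal markers VIM and ZEB1 had group means of 1094 to 2463 CPM and of 93.8 to 323 CPM. Another such marker, CDH2, differed more, from 441 CPM in 2D cells to 11.9 in vehicle-treated and 74.1 in DOX-treated tet-MUC1shRNA cells, and its part in the results was not tested. By contrast, the epithelial markers EPCAM and CDH1 reached at most 0.0415 and 1.42, ESR1 at most 0.967 and PGR at most 0.0376. The receptor gene ERBB2 was higher than ESR1 and PGR in every group, with group means of 19.99 to 35.8 CPM. Leukocyte and endothelial markers were low (PTPRC at most 1.25, CDH5 at most 0.0348), except that PECAM1 had group means of 2.99 to 9.36 CPM in the mammosphere groups and 0.0114 CPM in 2D cells. Fewer cells of a kind and less RNA per cell cannot be told apart in bulk samples.

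**Figure D1:**
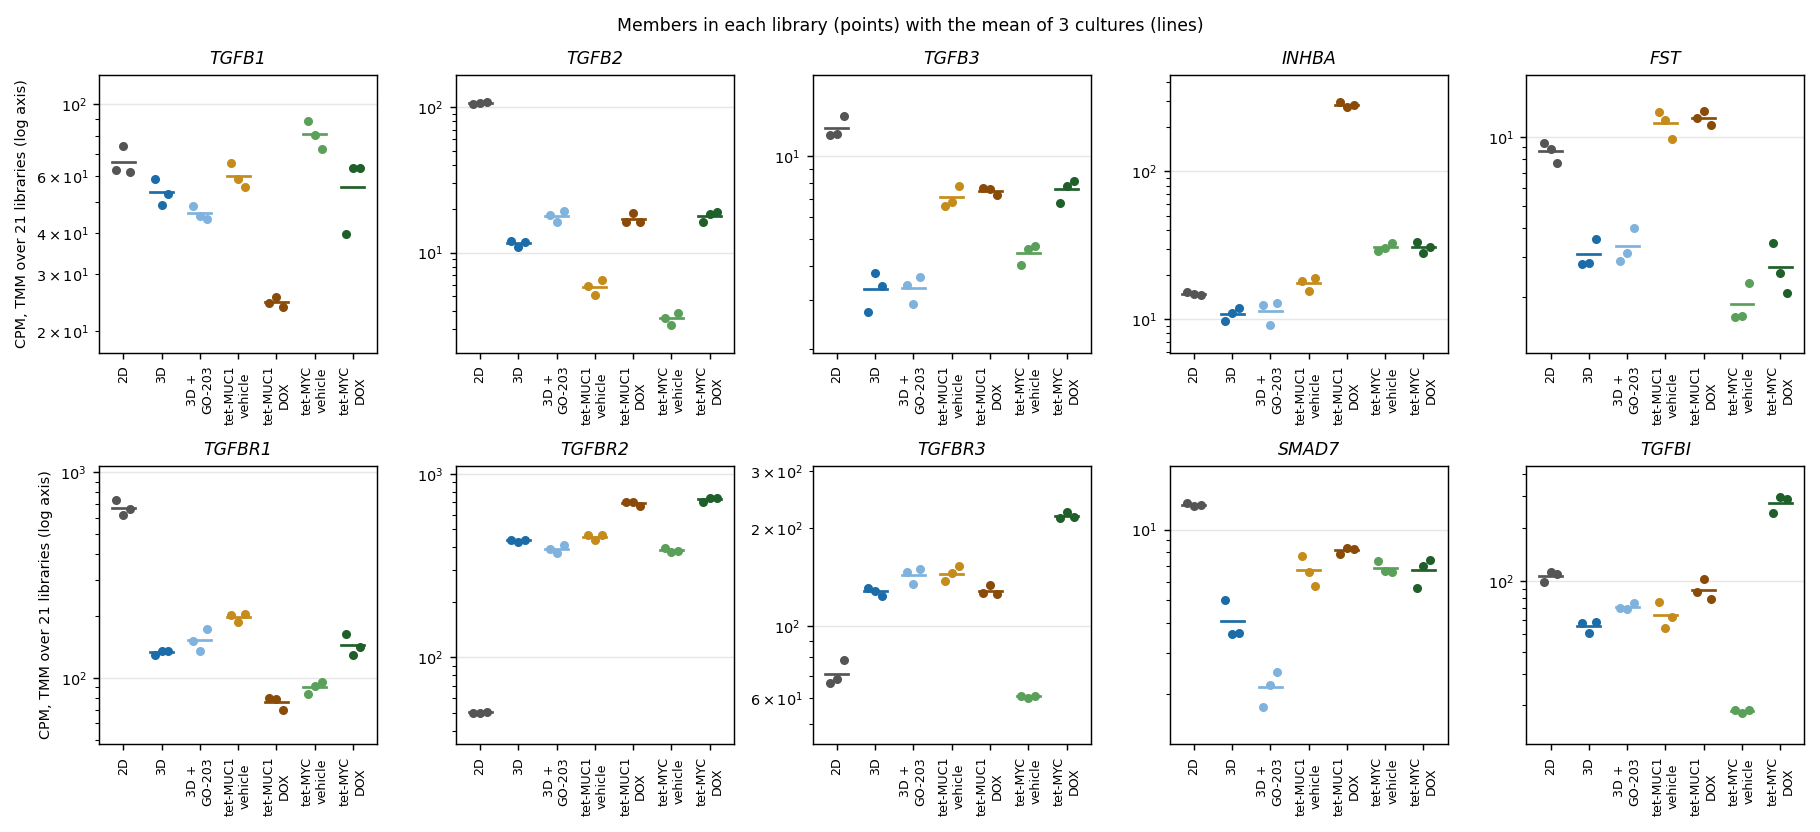
Level of each member in each library, in CPM scaled over 21 libraries on a log axis; points are the 3 cultures of a group and lines their mean. TGFBR2 was lowest and TGFBR1 highest in 2D cells, INHBA stood apart in DOX-treated tet-MUC1shRNA cells (275 to 293 CPM), and TGFBI ranged from 18.5 CPM in vehicle-treated to 277 CPM in DOX-treated tet-MYCshRNA cells.

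The comparison of 3D and 2D cells asked how serially passaged mammospheres, used to enrich stem-like TNBC cells, differ from attached cells. In 3D cells the receptor pair was inverted: TGFBR2 was 8.62-fold higher and TGFBR1 5.07-fold lower. TGFB2 was 9.16-fold lower, and the feedback and target genes SMAD7, FST and TGFBI were lower too. In the quasi-likelihood test of edgeR all 10 members reached an adjusted p below 0.1, 2 higher and 8 lower, where 63.7% of the 19190 genes tested did so (32.0% higher and 31.7% lower). Of these, 5 members also had an absolute log2 fold change above 1.5 (background 16.2%), and all 10 had groups that did not overlap (background 64.3%). The median log2 fold change was -1.21 over the members and -0.01 over all genes, and the median absolute value was 1.57 against 0.50.

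TGFBR2 (ENSG00000163513.19, chromosome 3, 30606601 to 30694142 on GRCh38) encodes the ligand-binding type II receptor kinase. It was at 50.2, 50.1 and 50.4 CPM in the 2D libraries and at 439, 427 and 438 CPM in the 3D libraries. The groups were far apart and each was tight, with a log2 fold change of 3.11 (SE 0.06, adjusted p = 9.86e-17, edgeR). TGFBR1 (ENSG00000106799.13, chromosome 9, 99104038 to 99154192), the type I kinase that passes the signal to SMAD2 and SMAD3, went the other way. Its 2D libraries had 735, 619 and 663 CPM and its 3D libraries 129, 135 and 135 CPM. Every 3D library was below every 2D library (log2 fold change -2.34, SE 0.07, adjusted p = 2.31e-14, edgeR). TGFBR3 (ENSG00000069702.11, chromosome 1, 91680343 to 91906335), the coreceptor, had 66.5, 68.7 and 78.4 CPM in 2D and 131, 128 and 124 CPM in 3D cells. It was higher in all 3D libraries, with a log2 fold change of 0.84 (SE 0.07, adjusted p = 1.87e-08, edgeR).

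Among the ligands, TGFB2 (ENSG00000092969.12, chromosome 1, 218345336 to 218444619) changed most, and TGFB1 least. TGFB2 had 104, 106 and 108 CPM in 2D libraries and 12.02, 10.9 and 11.9 CPM in 3D libraries, which do not approach each other (log2 fold change -3.20, SE 0.07, adjusted p = 5.21e-16, edgeR). TGFB2 shares 22.7% of its exon bases with the overlapping TGFB2-OT1 on the same strand and 11.6% with TGFB2-AS1 on the other, and reads from these could not be separated here. TGFB3 (ENSG00000119699.8, chromosome 14, 75958097 to 75983011), with 11.9, 11.98 and 13.997 CPM in 2D, was at 2.72, 3.77 and 3.36 CPM in 3D cells. Its groups did not overlap (log2 fold change -1.95, SE 0.14, adjusted p = 3.63e-09, edgeR). TGFB1 (ENSG00000105329.11, chromosome 19, 41301587 to 41353922), the main ligand of most tissues, had 62.9, 74.0 and 61.8 CPM in 2D and 58.8, 48.9 and 52.8 CPM in 3D cells. These ranges came close without overlapping, and the log2 fold change was -0.31 (SE 0.08, adjusted p = 0.00291, edgeR). TGFB1 shares 6.59% of its exon bases with HNRNPUL1 on the opposite strand.

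SMAD7 (ENSG00000101665.10, chromosome 18, 48919853 to 48950965), the inhibitor of the receptors, had 12.97, 12.6 and 12.7 CPM in 2D and 5.00, 3.61 and 3.64 CPM in 3D cells. All 3D libraries were lower (log2 fold change -1.65, SE 0.13, adjusted p = 1.80e-08, edgeR). TGFBI (ENSG00000120708.17, chromosome 5, 136028988 to 136063818) was between 99.3 and 112 CPM in 2D and between 51.1 and 58.9 CPM in 3D cells (log2 fold change -0.94, SE 0.07, adjusted p = 5.51e-09, edgeR). On the activin side, FST (ENSG00000134363.12, chromosome 5, 53480626 to 53487134) had 7.67 to 9.38 CPM in 2D and 2.80 to 3.59 CPM in 3D cells. Its log2 fold change was -1.49 (SE 0.15, adjusted p = 1.84e-07, edgeR), just inside 1.5. INHBA (ENSG00000122641.11, chromosome 7, 41667168 to 41705834) fell less, from 14.6 to 15.2 CPM in 2D to 9.69 to 11.8 CPM in 3D cells (log2 fold change -0.45, SE 0.10, adjusted p = 0.000789, edgeR).

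Vehicle-treated mammospheres of the tet lines were set against the same 2D libraries to see which differences rested on the 3D group. With either vehicle group in place of 3D cells, 6 members kept their direction: TGFB2 (log2 fold changes -3.20, -4.19 and -4.92 with 3D, tet-MUC1shRNA and tet-MYCshRNA cells), TGFB3, TGFBR1, TGFBR2, TGFBI and SMAD7. TGFBR2 gave 3.11, 3.17 and 2.94, nearly the same in the 3 mammosphere groups. The other 4 did not keep it. TGFB1 gave -0.31, -0.15 and 0.29, TGFBR3 gave 0.84, 1.02 and -0.23, INHBA gave -0.45, 0.24 and 1.05, and FST gave -1.49, 0.41 and -2.21. The vehicle groups also differ from 3D cells in vector, selection, vehicle and, for tet-MYCshRNA, passage, and these cannot be told apart.

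**Figure D2:**
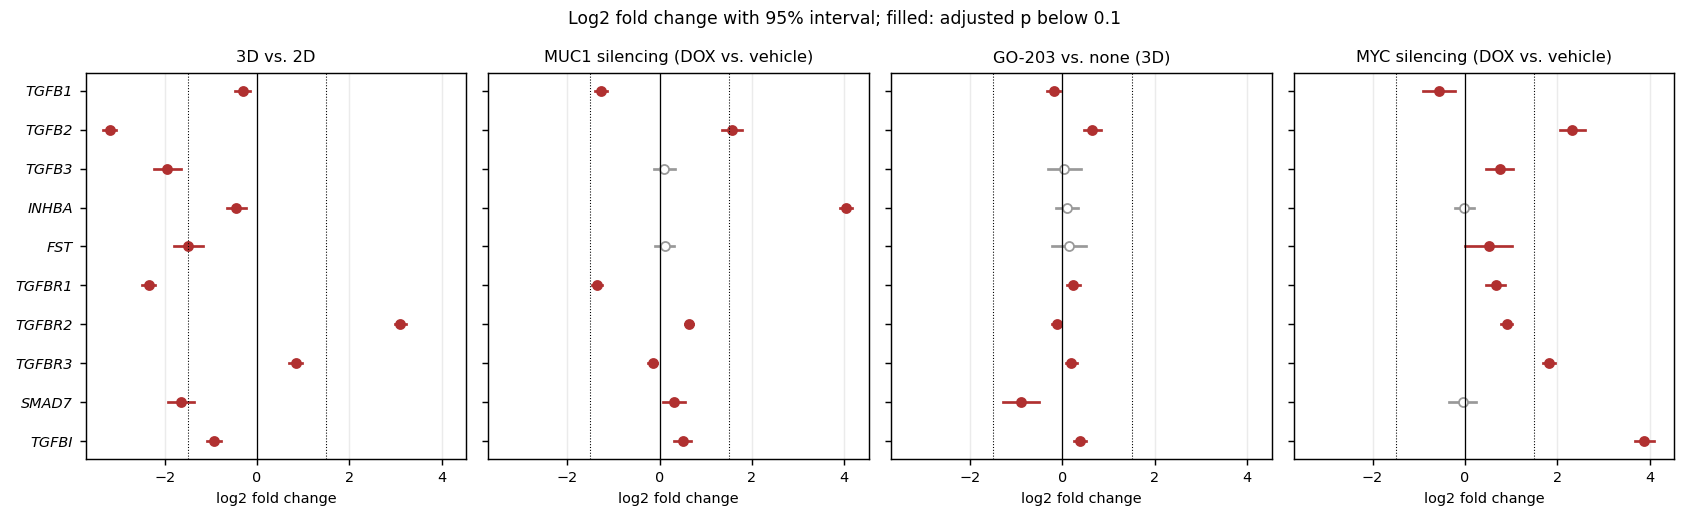
Log2 fold change of each member in the 4 comparisons (points) with 95% intervals (lines) from edgeR; filled points have an adjusted p below 0.1 and dotted lines mark a log2 fold change of 1.5 in either direction. TGFB2 lay at -3.20 in 3D vs. 2D cells and above 0 in the other 3 comparisons, INHBA reached 4.03 on MUC1 silencing, and TGFBI reached 3.89 on MYC silencing.

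Silencing MUC1 in S6 mammospheres addressed which of these genes depend on MUC1 in the 3D state. INHBA was 16.4-fold higher with DOX and TGFB2 2.96-fold higher, whereas TGFB1 and TGFBR1 were 2.41-fold and 2.55-fold lower. In all, 8 members passed, 5 higher and 3 lower, where 62.2% of 19220 genes passed (30.7% higher and 31.6% lower), and INHBA and TGFB2 were the 2 beyond a log2 fold change of 1.5 (background 8.82%). The groups did not overlap for 8 members, as for 62.8% of all genes. The members' median log2 fold change was 0.21 against 0.02 over all genes.

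INHBA had 18.1, 15.5 and 19.0 CPM with vehicle and 293, 275 and 281 CPM with DOX. No library of any other group exceeded 33.3 CPM. The log2 fold change was 4.03 (SE 0.06, adjusted p = 1.18e-20, edgeR), larger in absolute size than that of 99.3% of the genes tested. FST, whose product neutralises the activin made from INHBA, had 12.9, 11.8 and 9.81 CPM with vehicle and 12.2, 12.98 and 11.3 CPM with DOX. These overlapped and FST did not pass (log2 fold change 0.11, 95% interval -0.10 to 0.32, adjusted p = 0.375, edgeR). Over the alternative fits its log2 fold change reached 0.27, and it passed in 1 of them. INHBA shares 2.99% of its exon bases with INHBA-AS1 on the opposite strand.

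The ligands moved in opposite directions. TGFB2 had 5.87, 5.08 and 6.49 CPM with vehicle and 16.2, 18.6 and 16.2 CPM with DOX, all higher (log2 fold change 1.57, SE 0.10, adjusted p = 2.76e-11, edgeR). TGFB1 had 65.9, 58.7 and 55.6 CPM with vehicle and 24.5, 25.4 and 23.8 CPM with DOX, all lower (log2 fold change -1.27, SE 0.06, adjusted p = 5.87e-13, edgeR). TGFB3 did not pass (7.07 and 7.47 CPM on average, log2 fold change 0.10, 95% interval -0.12 to 0.32).

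TGFBR1 had 201, 186 and 203.1 CPM with vehicle and 79.2, 78.7 and 69.4 CPM with DOX, so every silenced culture was below every vehicle culture (log2 fold change -1.35, SE 0.05, adjusted p = 6.34e-15, edgeR). TGFBR2 rose in all cultures, from 467, 435 and 462 CPM to 703, 702 and 671 CPM (log2 fold change 0.63, SE 0.04, adjusted p = 2.95e-11, edgeR). The 2 receptors thus moved apart. TGFBR3 was lower by a small amount (log2 fold change -0.15, SE 0.05, adjusted p = 0.00833, edgeR), a direction that turned to 0.01 when libraries were scaled by their size alone (adjusted p = 0.833). That scaling moved the median of all genes from 0.02 to 0.19 and the share of higher genes among those called from 49.3% to 64.4%. TGFBI rose from 54.6 to 75.7 CPM with vehicle to 78.7 to 102 CPM with DOX (log2 fold change 0.50, SE 0.09, adjusted p = 5.86e-05, edgeR). SMAD7 rose from 7.75, 6.63 and 5.78 CPM to 7.89, 8.31 and 8.26 CPM, groups that nearly touch. Its log2 fold change was 0.31 (SE 0.11, adjusted p = 0.0269, edgeR), and without vehicle replicate 3 the adjusted p was 0.157.

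GO-203 was compared with the control 3D cells, the same 3 libraries as in the comparison with 2D cells. The labels give their treatment only as control, whereas the study's legends name a vehicle. MUC1 itself was higher with GO-203 (log2 fold change 0.33, SE 0.07, adjusted p = 0.00191, edgeR), whereas it was lower on MUC1 silencing. TGFB2 was 1.57-fold higher and SMAD7 1.86-fold lower, and 7 members passed, 4 higher and 3 lower, where 24.1% of 18488 genes passed (11.1% higher and 12.9% lower). No member passed a log2 fold change of 1.5 (background 0.757%), and 6 had groups that did not overlap under the comparison's own scaling (background 33.7%). The median log2 fold change was 0.13 over members and 0.02 over all genes.

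TGFB2 had 18.01, 16.1 and 19.2 CPM with GO-203 against 12.02, 10.9 and 11.9 CPM without, all higher (log2 fold change 0.65, SE 0.09, adjusted p = 1.47e-05, edgeR). SMAD7 had 1.76, 2.18 and 2.48 CPM with GO-203 against 5.00, 3.61 and 3.64 CPM without. It was lower in every treated culture (log2 fold change -0.89, SE 0.19, adjusted p = 0.00164, edgeR), and these 3 libraries were the lowest of all 21 for this gene. TGFBI was at 70.2, 69.6 and 75.4 CPM with GO-203 and at 58.3, 51.1 and 58.9 CPM without, again with no overlap (log2 fold change 0.39, SE 0.06, adjusted p = 8.83e-05, edgeR).

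The receptors shifted little. TGFBR3 was higher by 0.20 on the log2 scale (SE 0.06, adjusted p = 0.0191, edgeR). TGFBR1 was higher by 0.23 (SE 0.07, adjusted p = 0.0190, edgeR), with 0.14 and an adjusted p of 0.178 without GO-203 replicate 3 and an adjusted p of 0.129 with all 21 libraries in 1 fit. TGFBR2, with 388, 371 and 411 CPM against 439, 427 and 438 CPM, had a log2 fold change of -0.12 (SE 0.05, adjusted p = 0.0964, edgeR) and no longer passed in 5 of 6 fits with a library removed, all but that without GO-203 replicate 3 (adjusted p 0.110 to 0.278), and with no low-count filter (0.170). TGFB1 had 48.6, 45.2 and 44.4 CPM against 58.8, 48.9 and 52.8 CPM, so that the nearest libraries almost met, and under the comparison's own scaling the groups overlapped, which they did for no other member that passed. Its log2 fold change was -0.18 (SE 0.07, adjusted p = 0.0570, edgeR), and the call was lost without 3D replicate 1, GO-203 replicate 2 or GO-203 replicate 3 (adjusted p 0.133 to 0.349, log2 fold change -0.11 without 3D replicate 1) and with all 21 libraries in 1 fit (0.275). TGFB3, INHBA and FST did not pass, with log2 fold changes of 0.04 (95% interval -0.31 to 0.40), 0.10 (-0.14 to 0.34) and 0.15 (-0.22 to 0.52).

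The effects of MUC1 silencing and of GO-203 were compared in 1 fit over their 12 libraries, which tests the difference of the log2 fold changes. It passed for 7 members, 4 higher and 3 lower on silencing, where 44.9% of 20829 genes passed (20.8% higher and 24.1% lower). The 2 members beyond 1.5 were INHBA and TGFBR1 (background 8.59%). INHBA differed by 3.93 (SE 0.13, adjusted p = 3.35e-18, edgeR), TGFBR1 by -1.58 (SE 0.09, adjusted p = 2.18e-13), and SMAD7 by 1.20 (SE 0.21, adjusted p = 5.36e-05). TGFB1 differed by -1.08, TGFB2 by 0.92, TGFBR2 by 0.76 and TGFBR3 by -0.35. The changes of SMAD7, TGFBR1, TGFBR2 and TGFBR3 had opposite signs under silencing and GO-203. TGFB2 was higher both on MUC1 silencing and with GO-203, with the larger change on silencing. TGFBI differed by 0.12 (95% interval -0.14 to 0.37), and TGFB3 and FST did not pass either.

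Most members were higher when MYC was silenced in S8 mammospheres, the comparison that asks the same of MYC. TGFBI was 14.8-fold higher with DOX, TGFB2 5.02-fold and TGFBR3 3.54-fold, and TGFB1 alone among the members that passed was lower. In all, 8 members passed, 7 higher and 1 lower, where 58.5% of 19951 genes passed (30.3% higher and 28.1% lower), and 3 were beyond a log2 fold change of 1.5 (background 10.5%). The groups of 7 members did not overlap (background 59.7%). The members' median log2 fold change was 0.71, against 0.01 over all genes.

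TGFBI had 18.7, 17.9 and 18.7 CPM with vehicle and 242, 299 and 290.1 CPM with DOX. The vehicle libraries were the lowest and the DOX libraries the highest of all 21 (log2 fold change 3.89, SE 0.09, adjusted p = 1.91e-09, edgeR), and the change was larger than that of 99.3% of genes tested. TGFB2 had 3.55, 3.17 and 3.87 CPM with vehicle and 16.3, 18.3 and 19.1 CPM with DOX, all higher (log2 fold change 2.33, SE 0.12, adjusted p = 1.61e-07, edgeR). TGFB3 rose from 4.02, 4.59 and 4.70 CPM to 6.78, 7.80 and 8.14 CPM, also without overlap (log2 fold change 0.75, SE 0.13, adjusted p = 0.000626, edgeR). TGFB1 had 88.8, 80.3 and 72.9 CPM with vehicle and 39.7, 63.7 and 63.6 CPM with DOX, lower in every silenced culture, although DOX replicate 1 was far below the other two (log2 fold change -0.55, SE 0.16, adjusted p = 0.0127, edgeR). Without that library the log2 fold change was -0.37 (adjusted p = 0.00165).

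All 3 receptors were higher on MYC silencing. TGFBR3 had 60.9, 60.0 and 61.0 CPM with vehicle and 214, 224 and 216 CPM with DOX, the highest values of any group (log2 fold change 1.82, SE 0.06, adjusted p = 7.71e-09, edgeR). TGFBR2 had 394, 375 and 382 CPM with vehicle and 699, 737 and 743 CPM with DOX (log2 fold change 0.90, SE 0.06, adjusted p = 5.39e-07, edgeR). TGFBR1 rose from 83.4, 91.6 and 94.99 CPM to 164, 129 and 141 CPM, with no overlap (log2 fold change 0.66, SE 0.09, adjusted p = 0.000161, edgeR). INHBA (log2 fold change -0.02, 95% interval -0.22 to 0.19) and SMAD7 (-0.05, -0.35 to 0.24) did not pass. FST, at 1.65, 1.66 and 2.30 CPM with vehicle and 3.47, 2.56 and 2.09 CPM with DOX, overlapped. It passed with a log2 fold change of 0.51 (SE 0.23, adjusted p = 0.0871, edgeR), and it no longer passed in 4 of 6 fits with a library removed, those without vehicle replicate 1 or 2 or DOX replicate 1 or 2 (adjusted p 0.115 to 0.276), and with library size alone as scaling (0.106). Without DOX replicate 1 its log2 fold change was 0.30.

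Of the 6 members that passed under both silencings, TGFB2, TGFBR2 and TGFBI were higher in both, TGFB1 was lower in both, and TGFBR1 and TGFBR3 went in opposite directions. Of the 18198 genes tested in both, 43.0% passed in both, 11.5% higher in both, 12.7% lower in both and 18.8% in opposite directions. The difference of the effects, MUC1 minus MYC silencing, was an interaction term in 1 fit of both lines (12 libraries) and passed for 8 members, 1 higher and 7 lower, where 52.9% of 21585 genes passed (26.0% higher and 26.9% lower), and 4 differed by more than 1.5 (background 16.2%). INHBA had the largest positive difference (4.04, SE 0.11, adjusted p = 1.57e-14, edgeR) and TGFBI the largest negative one (-3.40, SE 0.16, adjusted p = 8.59e-12). TGFBR1 differed by -2.03 (SE 0.11, adjusted p = 8.85e-11) and TGFBR3 by -1.99 (SE 0.08, adjusted p = 7.30e-13). The lines also differed before silencing. With vehicle, FST was at 9.81 to 12.9 CPM in tet-MUC1shRNA and at 1.65 to 2.30 CPM in tet-MYCshRNA cells, TGFBI at 54.6 to 75.7 and 17.9 to 18.7 CPM, and TGFBR3 at 137 to 152 and 60.0 to 61.0 CPM. Line, passage and shRNA target cannot be told apart in this difference.

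**Figure D3:**
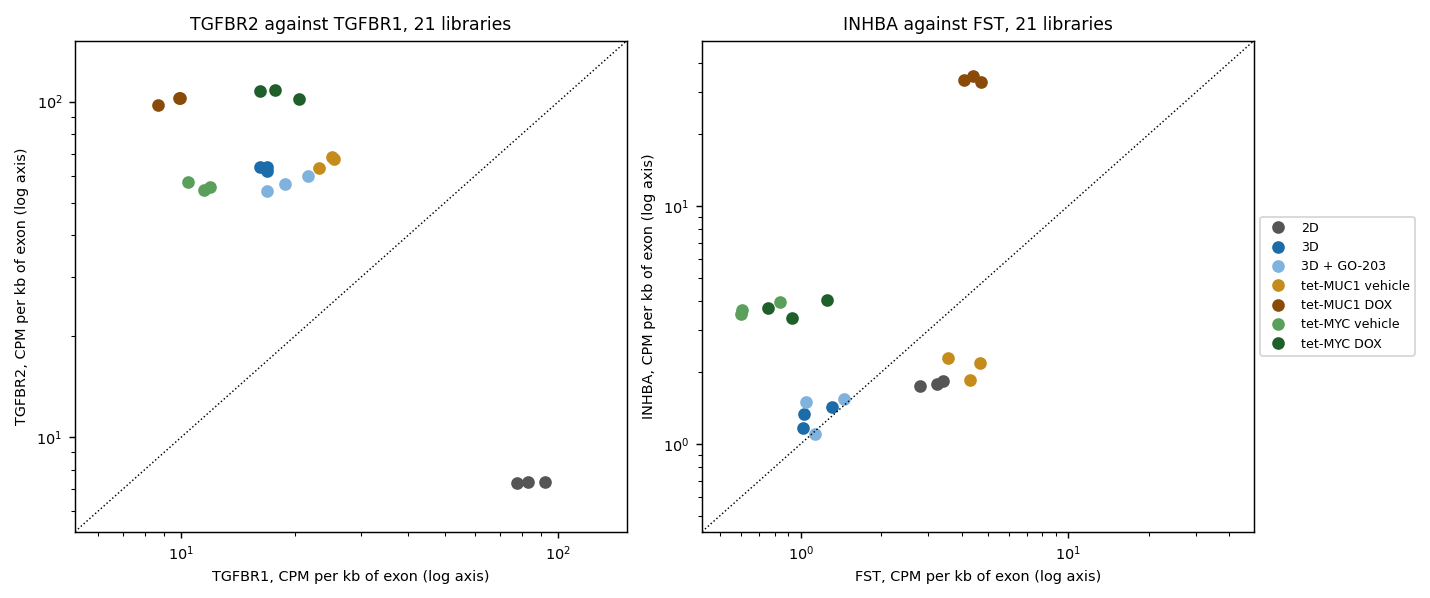
TGFBR2 against TGFBR1 and INHBA against FST in each of 21 libraries, in CPM per kb of exon on log axes; the dotted line marks equal levels. 2D cells lie alone below the line for the receptors (mean ratio 0.0876), and DOX-treated tet-MUC1shRNA cells lie farthest above it in both plots (mean ratios 10.7 and 7.77).

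Levels of different genes were compared as CPM per kb of exon. In 2D cells TGFBR1 had the highest level of the 10 members, 84.1 ± 7.31 CPM per kb (SD, n = 3), whereas in each of the 6 mammosphere groups TGFBR2 was first, from 56.0 ± 1.402 in vehicle-treated tet-MYCshRNA to 106 ± 3.49 in DOX-treated tet-MYCshRNA cells (SD, n = 3). The ratio of TGFBR2 to TGFBR1 was 0.0876 ± 0.00746 in 2D and 3.81 ± 0.138 in 3D cells (SD, n = 3). It was 2.99 ± 0.221 with GO-203, went from 2.699 ± 0.0394 to 10.7 ± 0.526 on MUC1 silencing, and from 4.99 ± 0.450 to 5.93 ± 0.863 on MYC silencing, where both receptors rose and the ratios of the 2 groups overlapped. INHBA was second only to TGFBR2 in DOX-treated tet-MUC1shRNA cells, at 34.1 ± 1.11 CPM per kb, and last among the members in 2D cells. Its ratio to FST went from 0.515 ± 0.113 to 7.77 ± 0.651 on MUC1 silencing. In the tet-MYCshRNA line the ratio was already 5.53 ± 0.711 with vehicle, and 3.91 ± 0.903 with DOX. These overlapped, with 4.71 to 6.03 in vehicle-treated and 3.19 to 4.93 in DOX-treated libraries.

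**Figure D4:**
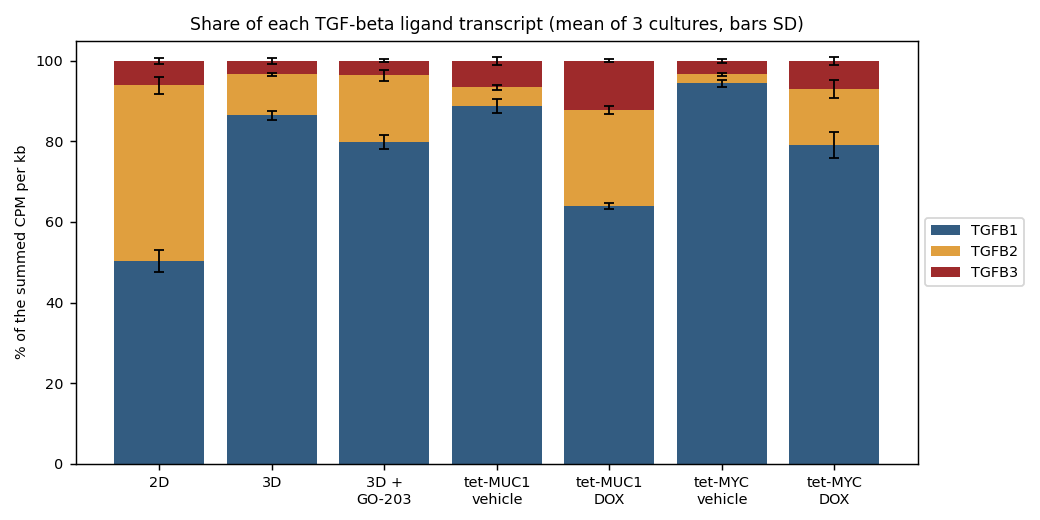
Share of TGFB1, TGFB2 and TGFB3 in their summed CPM per kb in each group, as stacked means of 3 cultures with SD bars. TGFB2 made up 43.6% in 2D cells and 2.25% to 23.9% in mammosphere groups.

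The composition of the ligand transcripts differed between groups. TGFB1 made up 50.4% ± 2.76 of the 3 ligands' summed CPM per kb in 2D and 86.5% ± 1.15 in 3D cells (SD, n = 3). The share of TGFB2 was 43.6% ± 2.13 in 2D, 10.1% ± 0.408 in 3D and 16.6% ± 1.35 with GO-203. It went from 4.66% ± 0.708 to 23.9% ± 0.967 on MUC1 silencing and from 2.25% ± 0.372 to 14.1% ± 2.25 on MYC silencing. In CPM, TGFB2 overlapped among the 3 targeted groups, at 16.1 to 19.2 with GO-203, 16.2 to 18.6 with MUC1 silencing and 16.3 to 19.1 with MYC silencing, although their control or vehicle groups differed (10.9 to 12.02, 5.08 to 6.49 and 3.17 to 3.87 CPM). All of these stayed far below the 104 to 108 CPM of 2D cells.

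Ordered over the 7 groups, the widest range of means was that of TGFB2, 30.0-fold between 2D cells and vehicle-treated tet-MYCshRNA cells, followed by INHBA (26.0-fold), TGFBI (15.0-fold) and TGFBR2 (14.5-fold). The narrowest was that of TGFB1 (3.29-fold), and 4 of its 6 neighbouring pairs of groups overlapped, as did those of FST. For TGFBR1 the order ran from 2D over vehicle-treated tet-MUC1shRNA cells to GO-203-treated cells, DOX-treated tet-MYCshRNA cells and 3D cells, whose neighbours overlapped, and ended with vehicle-treated tet-MYCshRNA and DOX-treated tet-MUC1shRNA cells. For SMAD7, 2D cells were highest and GO-203-treated cells lowest (5.95-fold), and the vehicle-treated tet-MYCshRNA, vehicle-treated tet-MUC1shRNA and DOX-treated tet-MYCshRNA groups overlapped as neighbours. For TGFBR3 the highest and lowest groups were both of the tet-MYCshRNA line (3.59-fold).

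The genes most like each member in log2 CPM over the 21 libraries were looked up among 13600 genes with a mean of at least 1 CPM, by Pearson's r. The closest were DNER for TGFBR2 (r = 0.99), PTGFRN for TGFB2 (0.99), CTSA for TGFBI (0.98), MAP1B for TGFBR1 (0.97), ABCC5 for INHBA (0.97), TEAD3 for TGFBR3 (0.97), SLFN5 for TGFB3 (0.96), NONO for TGFB1 (0.96), FGF2 for FST (0.95) and EN1 for SMAD7 (0.93). Among the members themselves r was lowest between TGFBR1 and TGFBR2 (-0.88) and highest between TGFB3 and SMAD7 (0.83). The libraries fall into 7 groups of replicates, so these values describe group patterns and carry no test.

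**Figure D5:**
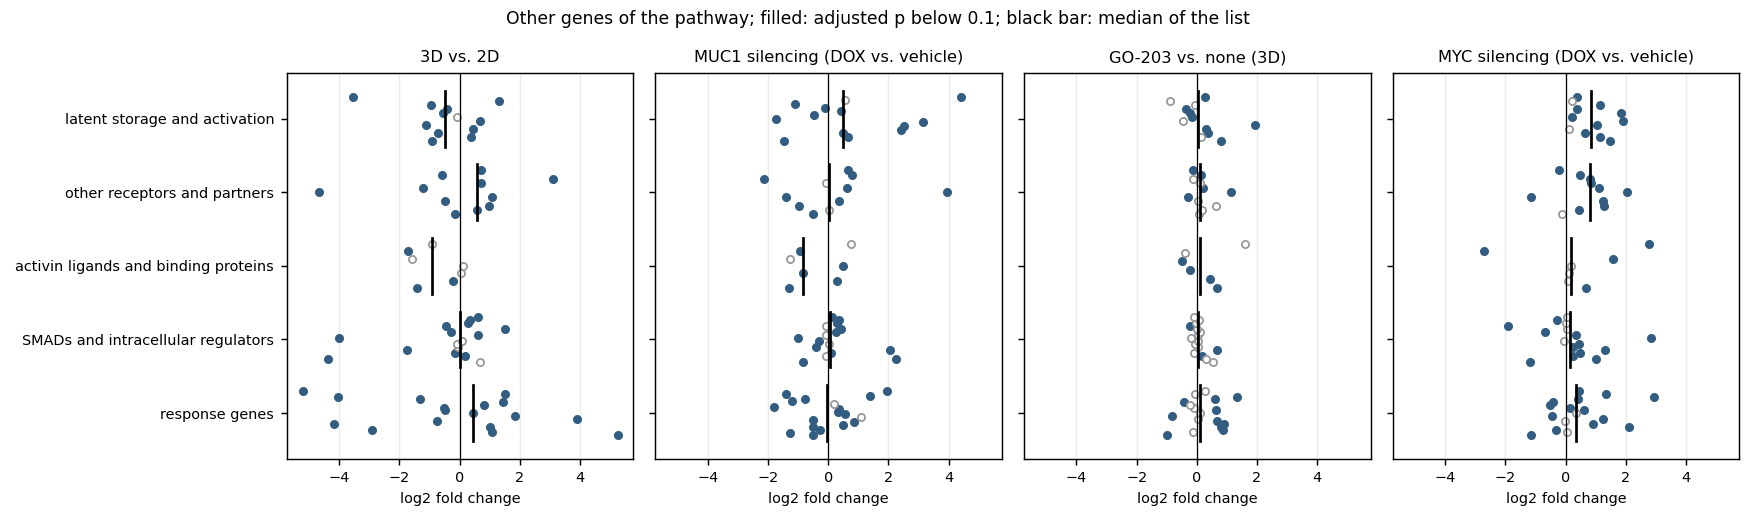
Log2 fold changes of the other pathway genes tested, by list (rows) and comparison (panels); filled points have an adjusted p below 0.1 in edgeR, and black bars are list medians. In the panel of MYC silencing all list medians are above 0, from 0.14 for SMADs and intracellular regulators to 0.84 for latent storage and activation genes.

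A further 71 genes of the pathway, in 5 lists by role, were read beside the members, with CPM scaled over the libraries of each comparison, so that the same 3D libraries differ slightly between comparisons. In 3D vs. 2D cells 63 were tested, 25 were higher, 29 lower and 9 did not pass, where 32.0% of all genes were higher and 31.7% lower. On MUC1 silencing 65 were tested, with 29 higher, 25 lower and 11 that did not pass (all genes 30.7% and 31.6%). With GO-203 62 were tested, with 19 higher, 11 lower and 32 that did not pass (all genes 11.1% and 12.9%). On MYC silencing 63 were tested, with 38 higher, 12 lower and 13 that did not pass (all genes 30.3% and 28.1%). Their median log2 fold changes were -0.09, 0.09, 0.06 and 0.39, beside -0.01, 0.02, 0.02 and 0.01 over all genes.

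In the list of latent storage and activation, THBS1 (thrombospondin-1, an activator of latent TGF-beta) was at 1461 ± 95.7 CPM in 2D and 126 ± 2.95 CPM in 3D cells (SD, n = 3; log2 fold change -3.53, adjusted p = 8.00e-17, edgeR). With MUC1 silenced its level rose from 57.5 ± 6.05 CPM to 1237 ± 26.4 CPM (SD, n = 3; log2 fold change 4.43, adjusted p = 5.21e-21, edgeR). LRRC32 (GARP), which anchors latent TGF-beta on the cell surface, fell on MUC1 silencing (-1.75), and rose on MYC silencing (1.91) and in 3D vs. 2D cells (0.69). THBS1 also rose with GO-203 (0.28) and on MYC silencing (0.38). On MYC silencing 10 of the 12 genes tested rose and none fell, beside 30.3% and 28.1% of all genes. In 3D vs. 2D cells 4 of 12 rose and 7 fell (32.0% and 31.7%), and on MUC1 silencing 7 of 13 rose and 5 fell (30.7% and 31.6%). With GO-203, ITGB8, the beta subunit of an integrin that activates latent TGF-beta, went from 1.22 ± 0.142 to 4.66 ± 0.201 CPM (SD, n = 3; log2 fold change 1.94, adjusted p = 6.52e-08, edgeR). From low levels, ITGB8 also rose on MUC1 silencing (3.14, from 0.326 to 2.93 CPM) and on MYC silencing (1.05, from 0.934 to 1.94 CPM). It was lower in 3D vs. 2D cells (-1.13, from 2.71 to 1.24 CPM). With GO-203 5 of 12 genes of the list rose and 3 fell, beside 11.1% and 12.9% of all genes.

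Among the other receptors and partners, BAMBI, a pseudoreceptor that interferes with type I receptors, had 87.3 ± 3.44 CPM in 2D and 3.40 ± 0.379 CPM in 3D cells (SD, n = 3; log2 fold change -4.68, adjusted p = 1.38e-16, edgeR). It was higher in each of the other comparisons, with log2 fold changes of 3.93 on MUC1 silencing, 1.14 with GO-203 and 2.05 on MYC silencing, from vehicle or control means of 0.311, 3.33 and 0.673 CPM. ENG (endoglin), a coreceptor like TGFBR3, was low throughout, higher in 3D vs. 2D cells (3.11, from 0.368 to 3.21 CPM) and lower on MUC1 silencing (-2.13). On MYC silencing it was higher (0.80, from 2.48 to 4.33 CPM). The activin receptor gene ACVR2B was lower on MUC1 silencing (-1.39), on MYC silencing (-1.16) and with GO-203 (-0.29), and higher in 3D vs. 2D cells (1.07). Of the 11 genes tested, 8 rose and 2 fell on MYC silencing (30.3% and 28.1% of all genes), and 6 rose and 5 fell in 3D vs. 2D cells (32.0% and 31.7%).

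In the list of SMADs and intracellular regulators 6 of 16 genes were higher, 6 lower and 4 did not pass in 3D vs. 2D cells, where 32.0% of all genes were higher and 31.7% lower. On MUC1 silencing 8 were higher and 4 lower (30.7% and 31.6%), and on MYC silencing likewise 8 and 4 (30.3% and 28.1%). PMEPA1, a pathway-induced inhibitor of SMAD signalling, was 25.1 ± 1.25 CPM in 2D and 1.20 ± 0.151 CPM in 3D cells (SD, n = 3; log2 fold change -4.39, adjusted p = 1.62e-14, edgeR), and it rose by 2.25 on MUC1 silencing and by 1.01 on MYC silencing. The second inhibitory SMAD gene, SMAD6, fell on MUC1 silencing (-0.99, from 1.96 to 0.979 CPM) and in 3D vs. 2D cells (-4.01, from 28.5 to 1.77 CPM). SMAD6 rose on MYC silencing (2.84, from 0.336 to 2.43 CPM), where TGIF2, a SMAD corepressor, fell (-1.92). TGIF2 was also lower in 3D vs. 2D cells (-0.45) and with GO-203 (-0.23). With GO-203 the largest rise was that of SKIL, another corepressor induced by the pathway (0.68), and 3 of the 16 genes passed, beside 24.1% of all genes. SKIL rose more on MUC1 silencing (2.06) and on MYC silencing (1.301), and fell in 3D vs. 2D cells (-1.76). The activin list was mostly at low counts, with 5 of its 12 genes untested in 3D vs. 2D cells. In it FSTL1, a follistatin-like secreted protein, went from 955 ± 23.0 to 387 ± 10.3 CPM on MUC1 silencing (SD, n = 3; log2 fold change -1.30, adjusted p = 2.87e-16, edgeR) and from 992 ± 1.89 to 1593 ± 34.6 CPM with GO-203 (0.68, adjusted p = 1.73e-10). It was also higher on MYC silencing (0.67) and lower in 3D vs. 2D cells (-1.42).

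The response genes, known to be induced by TGF-beta in many cells, rose and fell in each comparison. In 3D vs. 2D cells 9 of 17 rose and 8 fell (32.0% and 31.7% of all genes), and on MUC1 silencing 7 of 18 rose and 9 fell (30.7% and 31.6%). With GO-203 7 of 17 rose and 3 fell (11.1% and 12.9%), and on MYC silencing 9 of 17 rose and 5 fell (30.3% and 28.1%). TPM1 (tropomyosin) was at 250 ± 21.2 CPM in 2D and 6.68 ± 0.558 CPM in 3D cells (SD, n = 3; log2 fold change -5.22, adjusted p = 5.15e-17, edgeR) and rose on MUC1 silencing (1.95) and on MYC silencing (0.45). ANGPTL4, a secreted lipase inhibitor, went the other way in 3D vs. 2D cells, from 5.21 ± 0.697 to 198 ± 12.9 CPM (SD, n = 3; log2 fold change 5.25, adjusted p = 1.08e-16, edgeR), and was lower with GO-203 (-1.01), on MYC silencing (-1.13) and on MUC1 silencing (-0.51). LOX, the collagen cross-linking lysyl oxidase, fell on MUC1 silencing (-1.79) and in 3D vs. 2D cells (-0.53), and rose on MYC silencing (0.16). TAGLN, the contractile protein transgelin, rose with GO-203 (1.32), on MUC1 silencing (1.39) and on MYC silencing (2.95), from means of 1.04, 0.560 and 0.279 CPM, and fell in 3D vs. 2D cells (-4.05). It shares 38.1% of its exon bases with ENSG00000280143 on the same strand and 34.1% with PCSK7 on the other. Reads from these could not be separated here.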

How the data were processed

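The authors sequenced stranded, paired-end mRNA libraries, aligned the reads to GRCh38 with STAR (2.7.3a in the submitters' processing notes) and deposited raw counts per gene from featureCounts, without normalization. Strand setting, annotation release and multimapping reads are not given in the sources used here. Blank cells of the table, the same genes in every library of a block, were read as 0. The GO-203 libraries form a block of their own, so GO-203 was compared with 3D across blocks, and 2851 of its listed genes have a total of 0, so blank and 0 may not mean the same there. Gene positions, exon lengths and overlaps are those of GENCODE release 44.

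Each comparison was fitted on its own 6 libraries, and each difference of effects on 12, in R 4.3.3 with edgeR 4.0.16: filterByExpr, TMM factors and the quasi-likelihood test, with p-values adjusted over all genes tested (Benjamini-Hochberg). Genes passed at an adjusted p below 0.1. Libraries count as not overlapping where all values of one group exceed all of the other. Correlations used log2 CPM with a prior count of 2. The 10 members and the 5 pathway lists were chosen by name, with earlier results of these data known. From each list, genes are named only from those with the largest rise or the largest fall among genes that passed, in each comparison, and for each member the 1 gene most like it is named. The edgeR fits were tested on simulated counts, and the other steps were not.

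Counts differed beyond sampling noise in each of the 21 replicate pairs (chi-square per degree of freedom 4.36 to 52.8), so none was counted as a duplicate. The labels give no batch. Alternatives were DESeq2 1.42.0, RLE factors, library size alone, no low-count filter or a minimum of 10 counts per library, 1 fit of all 21 libraries, the replicate block, an adjusted p below 0.05, a log2 fold change above 1.5, other mammosphere groups and leaving out each library.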

Additional observations from a re-analysis of the deposited data

Results flagged for a closer look

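The effect of DOX differed between the tet-MUC1shRNA and tet-MYCshRNA lines for 8 members, by edgeR's interaction test over 12 libraries, where 52.9% of 21585 genes passed. The difference of log2 fold changes, MUC1 minus MYC silencing, was -0.73 for TGFB1, -0.77 for TGFB2, -0.66 for TGFB3, -2.03 for TGFBR1, -0.29 for TGFBR2, -1.99 for TGFBR3, -3.40 for TGFBI and 4.04 for INHBA. For TGFB1, TGFB2, TGFBR2 and TGFBI the 2 effects had the same direction and differed in size. For TGFBR1 and TGFBR3 they had opposite directions. For TGFB3 only the effect of MYC silencing passed and for INHBA only that of MUC1 silencing. Over the alternatives TGFB3 on MUC1 silencing reached a log2 fold change of 0.27, and it passed in 1 of them. The difference of TGFBR2 was -0.08 with library size alone as scaling (adjusted p = 0.316, edgeR). No library of a group was tested as standing apart, since groups had 3 libraries.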

How the results depend on the processing

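Of 440 values of members under alternatives other than leaving out a library, 419 kept their direction and their side of the threshold, 7 lost their call, 5 gained one and 9 turned in direction. Of 480 values without 1 library, 447 did not change in these respects. The cause of a turn was not tested. Against 2D cells, vehicle-treated tet-MUC1shRNA mammospheres gave log2 fold changes of 0.24 for INHBA and 0.41 for FST, and vehicle-treated tet-MYCshRNA mammospheres gave 0.29 for TGFB1, -0.23 for TGFBR3 and 1.05 for INHBA. With library size alone, TGFBR3 on MUC1 silencing was 0.0128 and the FST difference between MUC1 silencing and GO-203 was 0.12, and with at least 10 counts in every library the latter was 0.00536. INHBA on MYC silencing was 0.00501 with all 21 libraries in 1 fit. Without 1 library, values that did not pass crossed 0. With GO-203, TGFB3 ran from -0.0705 to 0.159 and FST from -0.00088 to 0.27. On MYC silencing, INHBA ran from -0.0802 to 0.0465 and SMAD7 from -0.130 to 0.0514. The difference between MUC1 silencing and GO-203 ran from -0.0519 to 0.165 for TGFB3 and from -0.175 to 0.108 for FST.

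A log2 fold change above 1.5 left 5, 2, 0 and 3 members in 3D vs. 2D cells, MUC1 silencing, GO-203 and MYC silencing, and 3107, 1695, 140 and 2085 genes, and 4 and 2 members in the differences from MYC silencing and from GO-203. At an adjusted p below 0.05, 10, 8, 5 and 7 members passed in the 4 comparisons (TGFB1 and TGFBR2 with GO-203 and FST on MYC silencing did not) and 8 and 7 in the differences. Without 1 library, 10 to 10, 7 to 8, 5 to 6 and 7 to 8 members passed in the 4 comparisons, and 11743 to 12207, 11233 to 11665, 3228 to 4144 and 10036 to 12353 genes. In the 2 differences 8 to 10 and 7 to 8 members passed. With library size alone the share of higher genes among those called moved from 49.1% to 61.2% in the difference between MUC1 and MYC silencing and from 46.4% to 61.6% in that between MUC1 silencing and GO-203.

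The replicate numbers gave little sign of pairing, with mean correlations of same-numbered deviations of -0.02, 0.02, 0.06 and -0.11 in the 4 comparisons. With 3 libraries per group this cannot exclude pairing. With the replicate block, 10, 8, 7 and 7 members passed, and 11802, 11922, 4973 and 10478 genes, and FST on MYC silencing was the member that lost its call (adjusted p = 0.156, edgeR). The deepest library had 2.62 times the counts of the shallowest.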
